A study of Mus musculus with 6 samples.

Results

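The tripartite motif (TRIM) family was followed in RAW264.7 cells, a mouse macrophage cell line, after exposure to drug-loaded nanoparticles. Members were the rows of the deposited expression table whose symbol begins with Trim and a number, which gave 68 genes of the 22105 rows with an Ensembl gene identifier. The nanoparticle group held 3 libraries from cells given CM-PEG-PLGA@DOX/R848 particles for 24 h, at a dose that carried the equivalent of 2 µg/mL of DOX. The PBS group held 3 libraries from cells given phosphate buffered saline for the same time. DOX stands for doxorubicin, a topoisomerase II poison used against tumours. R848, or resiquimod, activates endosomal Toll-like receptors. PLGA and PEG are carrier polymers, and what CM means is left unsaid in the labels. Cells given only 1 of the components were not among the libraries, so effects of DOX, of R848 and of the carrier cannot be told apart. RAW264.7 is 1 transformed line, so the samples stand for no other macrophage, and the labels do not say whether replicates were separate cultures. The p-values therefore rest on the spread among these 6 samples alone, part or all of which may be technical.

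TRIM proteins carry a RING domain, 1 or more B-box zinc fingers and a coiled coil, and most act as E3 ubiquitin ligases. They are sorted into classes by what follows the coiled coil, most often a SPRY domain that binds the target. In macrophages several members take part in antiviral defence. Some restrict viral capsids or bind antibody-coated particles in the cytosol, and others place ubiquitin on nucleic acid sensors and their adaptors. A separate group, the TIF1 proteins, holds a PHD finger and a bromodomain and works on chromatin.

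The values were FPKM, which scale fragments by transcript length and library size, so that levels of different genes can be set side by side. The FPKM of a library summed to 451056 to 469220 in the nanoparticle group and to 457161 to 468500 in the PBS group. Sequencing depth is unknown. More genes were listed above 0 in nanoparticle libraries, 15723 to 15989, than in PBS libraries, 12678 to 12872, and the part of that gap in the values of rare members was not tested. All 8 macrophage markers examined averaged at least 1 FPKM in both groups. Their summed level was 1429 to 1526 FPKM in nanoparticle libraries, against 3358 to 3500 FPKM in PBS libraries. The markers did not move as one. Csf1r, Lyz2, Cd14, Cd68 and Itgam were lower, Adgre1 and Fcgr1 were higher, and Spi1 was not called, with a median log2 fold change of -0.27. Their part in the TRIM values was not tested. None of the markers of T cells, B cells, epithelium, fibroblasts and endothelium, 3 for each, reached an average of 1 FPKM in either group, and Cd8a and Krt18 were listed at 0 in every library. The endothelial markers summed to 0.950 to 1.12 FPKM in nanoparticle libraries, against 0.153 to 0.337 FPKM in PBS libraries. In bulk RNA, fewer cells that express a gene and less of its RNA per cell cannot be told apart.

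Of the 68 members, 34 averaged at least 1 FPKM over the 6 libraries and were tested. With limma, on log2(FPKM + 1) and with Benjamini-Hochberg adjustment over all 10229 genes tested, 22 of the 34 were higher in nanoparticle libraries and 5 were lower at an adjusted p under 0.05. These 27 made up 79.4% of the tested members, close to the background of 77.2% called among all genes tested. By direction, 64.7% of members were higher against a background of 42.7%, and 14.7% were lower against 34.5%. These shares move with the scaling. With median-ratio scaling 20 members were higher and 5 lower, and over all genes tested 3682 were higher and 4198 lower, beside 4366 and 3530 in the values as deposited. Of the higher members, 10 had a log2 fold change of 1 or more, 29.4% of those tested against a background of 11.4%. Of the lower members, 1 had a log2 fold change of -1 or less, 2.94% against 6.29%. With median-ratio scaling the counts of this size were 9 and 2 among members, and 974 and 844 among all genes tested, beside 1164 and 643 as deposited. The median log2 fold change was 0.55 for the tested members and 0.08 for all genes tested. These counts are descriptions, since 6 of the tested members had a PBS average under 1 FPKM and entered only through their nanoparticle level. Of all 362 genes that entered that way, 95.9% were called higher. Trim65, with a nanoparticle average under 1 FPKM, entered only through its PBS level. Of the 28 members with a PBS average of at least 1 FPKM, 16 rose, 5 fell and 7 did not pass, which makes 57.1% higher and 17.9% lower. Over all 9867 genes with such a PBS average the shares were 40.7% and 35.8%. The median log2 fold change of the 28 was 0.28. The 3 values of each group did not overlap for 28 of the 34 members, 23 with the nanoparticle values above (67.6% of members, background 43.7%) and 5 with them below (14.7%, background 35.1%).

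**Figure D1:**
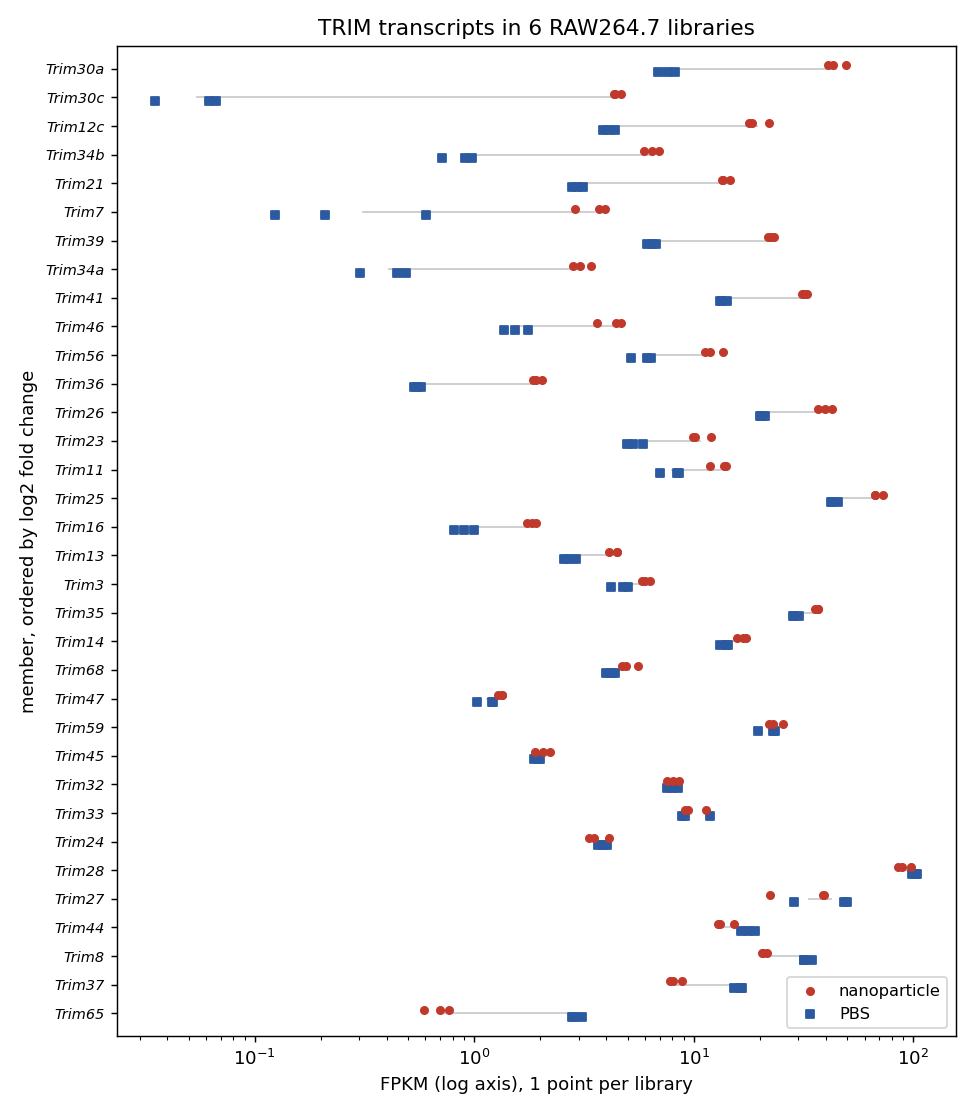
FPKM of the 34 tested TRIM genes in each library, on a log axis, with nanoparticle libraries as red circles, PBS libraries as blue squares and a grey line joining the group means. Trim30a, at the top, lies at 41.0 to 49.5 FPKM in nanoparticle libraries and 6.84 to 8.24 FPKM in PBS libraries, and Trim65, at the bottom, lies lower in nanoparticle libraries.

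Trim28 was the most abundant member in both groups, followed by Trim25. Trim28 averaged 90.7 ± 6.73 FPKM in nanoparticle cells and 102 ± 2.63 FPKM in PBS cells (SD, n = 3 each). Trim30a stood at rank 3 of the family in nanoparticle cells, against rank 15 in PBS cells. Trim27, Trim8 and Trim37 moved down the order, to ranks 6, 10 and 19 in nanoparticle cells against ranks 3, 4 and 9 in PBS cells. Summed over the 68 members, the family reached 594, 585 and 602 FPKM in nanoparticle libraries and 446, 441 and 431 FPKM in PBS libraries. The groups did not overlap, and the ratio of the means was 1.35.

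**Figure D2:**
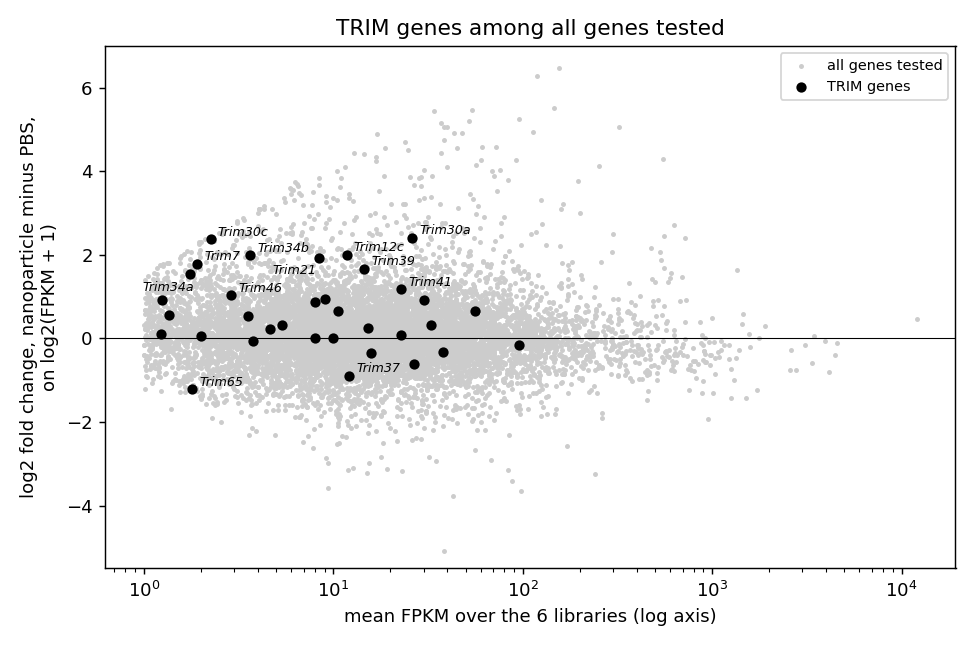
Log2 fold change on log2(FPKM + 1) of every gene tested (grey) and of the 34 tested TRIM genes (black), against the mean FPKM of the 6 libraries on a log axis. The black points run from -1.22 for Trim65 to 2.41 for Trim30a, and most lie above 0.

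On log2(FPKM + 1), the 4 largest log2 fold changes of the family belonged to genes of 1 stretch of chromosome 7. There the Trim5, Trim6, Trim12, Trim30 and Trim34 genes lie in a row of 10, mouse relatives of the primate TRIM5 locus, whose best known product restricts retroviral capsids. That ranking depends on the added 1 FPKM. With 0.1 FPKM added instead, Trim7 of chromosome 11 (3.29) was below Trim30c (4.89) but above Trim34b (2.76), Trim30a (2.55) and Trim12c (2.21). With values scaled to the same sum, Trim7 (2.40) was also above Trim34b (2.38) and Trim12c (2.12). All 5 tested members of the row rose, with log2 fold changes of 1.54 to 2.41, beside 42.7% of all genes tested that were called higher. The other 5 averaged under 1 FPKM over the 6 libraries. Of the 5 tested, Trim34a, Trim34b and Trim30c had PBS averages under 1 FPKM and passed the filter only through their nanoparticle level, so their direction was fixed by the filter. Of all 362 genes that entered that way, 95.9% were called higher. Only Trim30a and Trim12c passed on their PBS level too, and of all genes that did so 40.7% were called higher. The summed level of the 10 was 75.2, 77.1 and 89.4 FPKM in nanoparticle libraries and 12.5, 13.1 and 14.0 FPKM in PBS libraries, a ratio of means of 6.10. Every nanoparticle library was above every PBS library.

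Trim30a (ENSMUSG00000030921, chromosome 7, 104409025 to 104465193, minus strand, GRCm38) encodes a protein reported in mouse to restrain Toll-like receptor signalling to NF-kB. It had 41.0, 43.2 and 49.5 FPKM in nanoparticle libraries, against 6.84, 7.56 and 8.24 FPKM in PBS libraries. It rose by 2.41 ± 0.09 on the log2 scale (SE, limma adjusted p = 7.2e-09). The nanoparticle values lay far above the PBS values, and the ratio of means was 5.90.

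Trim30c (ENSMUSG00000078616, chromosome 7, 104382065 to 104400837) was close to 0 in PBS cells. It had 4.32, 4.37 and 4.68 FPKM in nanoparticle libraries, against 0.0617, 0.0669 and 0.0352 FPKM in PBS libraries. The difference of 2.37 ± 0.08 on the log2 scale (SE, limma adjusted p = 4.8e-09) understates the ratio for so low a starting level, because of the added 1 FPKM. Trim30c passed the filter only through its nanoparticle level, so its direction was fixed by the filter. Trim30d and Trim30b, the remaining genes of that subgroup, were below the level needed for the test. Trim30d had 1.15, 1.05 and 1.40 FPKM in nanoparticle libraries, against 0.106, 0.113 and 0.106 FPKM in PBS libraries. Trim30b had 0.804, 0.678 and 1.02 FPKM in nanoparticle libraries, against 0, 0.0799 and 0.0338 FPKM in PBS libraries. In all 4 Trim30 genes each nanoparticle library exceeded each PBS library. The same separation held for 43.7% of all genes tested and for 33.7% of untested genes above 0 in a library.

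Trim12c (ENSMUSG00000057143, chromosome 7, 104338754 to 104353362), which in mouse cooperates with the adaptor TRAF6, had 17.8, 18.5 and 21.9 FPKM in nanoparticle libraries. Its PBS libraries held 3.88, 4.08 and 4.38 FPKM. The groups were well apart, and the log2 difference was 1.99 ± 0.09 (SE, limma adjusted p = 2.9e-08). Its close relatives Trim5 and Trim12a stayed under 0.5 FPKM throughout. Trim5 had 0.394, 0.409 and 0.405 FPKM in nanoparticle libraries and 0.0910, 0.0426 and 0 FPKM in PBS libraries.

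Trim34b (ENSMUSG00000090215, chromosome 7, 104329471 to 104336909) had 6.43, 5.91 and 6.94 FPKM in nanoparticle libraries, against 0.978, 0.905 and 0.717 FPKM in PBS libraries (log2 fold change 1.99 ± 0.09 SE, limma adjusted p = 3.5e-08). Trim34a (ENSMUSG00000056144, chromosome 7, 104244457 to 104262234) had 3.05, 2.82 and 3.40 FPKM in nanoparticle libraries, against 0.487, 0.303 and 0.444 FPKM in PBS libraries (log2 fold change 1.54 ± 0.09 SE, limma adjusted p = 2.6e-07). Groups did not overlap for either gene. Both passed the filter only through their nanoparticle level, so their direction was fixed by the filter. Trim6, next to Trim34a, was listed at 0 in all PBS libraries and at 0.0292 FPKM in 1 nanoparticle library.

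Some of these genes are near copies, and the split of fragments among them is uncertain. Of the 50-base windows of its protein-coding transcripts, Trim34a shared 59.7% with transcripts of other genes, mostly Trim34b, and Trim34b shared 56.8%. The shares were 36.6% for Trim5, 33.7% for Trim12c and 20.8% for Trim12a. They were 6.53% for Trim30a, 0.660% for Trim30c, 1.51% for Trim30b and 7.49% for Trim30d. Sums over the copies shift less with that split but are not free of it, because FPKM divides by transcript length and shared fragments may not have been counted. Trim34a and Trim34b together had 9.48, 8.73 and 10.3 FPKM in nanoparticle libraries and 1.46, 1.21 and 1.16 FPKM in PBS libraries. Trim5, Trim12a and Trim12c together averaged 4.79 times more in nanoparticle cells than in PBS cells, and the 4 Trim30 genes 6.59 times more.

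**Figure D3:**
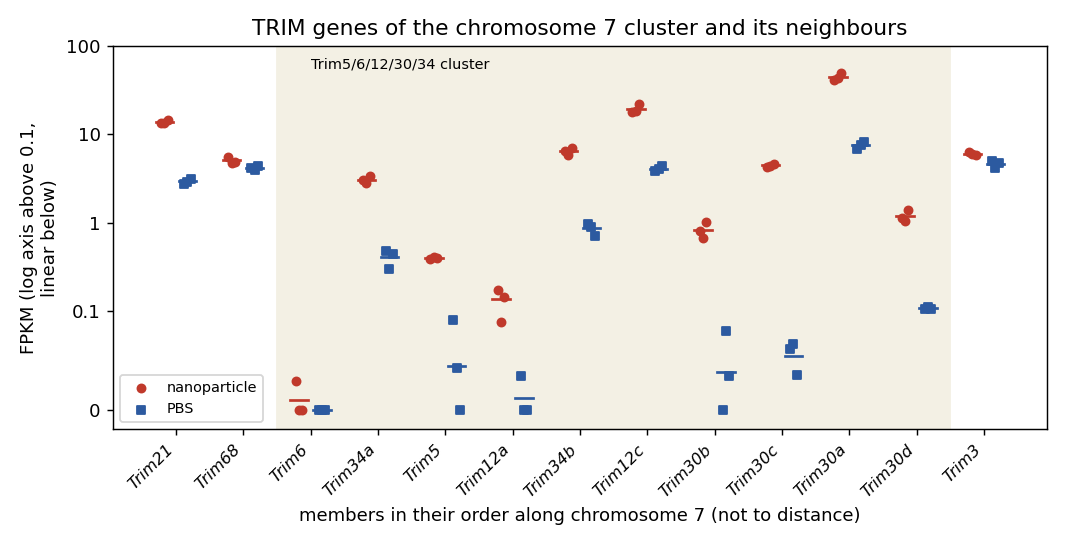
FPKM by library, with nanoparticle libraries in red left of PBS libraries in blue and short lines at the group means, for members in their order along chromosome 7. The axis is logarithmic above 0.1 FPKM and linear below, the shaded row is the 10-gene cluster, and within it Trim30a is the most abundant gene in both groups while Trim6 stays near 0.

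The promoters of these genes are shown because many hold 2 copies of GAAA with any 2 bases between them, the core of the interferon-stimulated response element (ISRE) that STAT and IRF factors bind. RefSeq windows (GRCm38.p6), from 250 bases before to 50 bases after an annotated start, were present for 53 of the 68 members. On either strand, the motif was found in windows of 6 of the 10 cluster genes and of 3 of the other 43 members. It was found for 3.99% of all 27025 genes with a window, and for 9.41% of the 903 such genes called higher with a log2 fold change of 1 or more. The 3 members outside the cluster were Trim21, Trim26 and Trim2. Of the 16 members in the table that rose, 5 held it, which were Trim30a, Trim12c and Trim34a of the cluster, Trim21 and Trim26. Of the 10 with a log2 fold change of 1 or more, 4 did. Of the 9 tested members in the table that did not rise, 0 did. With 3.92% of all tested genes with a window holding it, 0 of 9 shows no difference from that share. A match describes letters in the window and not a bound site. The stretches of the 6 cluster genes below run from 100 bases before to 30 bases after the start. Capitals mark the motif, which reads as 2 copies of TTTC where it lies on the opposite strand.
Trim30a (chr7:104465164-104465293, minus strand): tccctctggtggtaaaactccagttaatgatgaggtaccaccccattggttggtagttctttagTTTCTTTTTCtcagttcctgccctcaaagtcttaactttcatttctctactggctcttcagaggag
Trim30d (chr7:104507820-104507949, minus strand): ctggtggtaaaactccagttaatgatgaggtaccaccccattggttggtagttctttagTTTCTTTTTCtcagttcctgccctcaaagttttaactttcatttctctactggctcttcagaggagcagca
Trim12c (chr7:104353320-104353449, minus strand): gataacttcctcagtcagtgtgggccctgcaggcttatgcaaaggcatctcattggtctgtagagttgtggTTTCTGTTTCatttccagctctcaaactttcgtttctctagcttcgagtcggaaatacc
Trim12a (chr7:104315466-104315595, minus strand): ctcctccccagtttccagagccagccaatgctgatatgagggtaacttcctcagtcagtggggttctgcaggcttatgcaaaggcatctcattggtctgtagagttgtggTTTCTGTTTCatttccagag
Trim5 (chr7:104288077-104288206, minus strand): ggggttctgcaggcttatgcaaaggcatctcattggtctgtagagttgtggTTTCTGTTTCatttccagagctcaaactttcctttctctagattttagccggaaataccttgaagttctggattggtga
Trim34a (chr7:104244357-104244486, plus strand): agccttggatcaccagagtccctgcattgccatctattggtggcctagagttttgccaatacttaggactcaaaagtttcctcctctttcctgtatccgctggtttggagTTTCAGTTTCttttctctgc
The match lay 36 bases before the start in Trim30a, 41 before it in Trim30d, 29 before it in Trim12c and 49 before it in Trim5. In Trim12a and Trim34a it lay from base 11 of the transcript. A 50-base stretch centred on the motif was identical at 50 positions between Trim30a and Trim30d and between Trim5 and Trim12a, and at 48 between Trim5 and Trim12c. Trim30a and Trim5 were identical at 27 of the 50. Trim5 and Trim12a, with the same stretch as one another, averaged 0.403 and 0.137 FPKM in nanoparticle cells, against 0.0445 and 0.0115 FPKM in PBS cells. Trim12c, which differs at few positions, averaged 19.4 ± 2.20 FPKM in nanoparticle cells, against 4.11 ± 0.255 FPKM in PBS cells. For each of these genes every nanoparticle library exceeded every PBS library, as for 43.7% of tested genes and 33.7% of untested genes above 0 in a library. The split of fragments among them is uncertain, and the part of the stretch in their levels was not tested. The windows of Trim30c, Trim30b, Trim34b and Trim6 held no match.

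Trim21 (ENSMUSG00000030966, chromosome 7, 102557921 to 102565486), the cytosolic receptor for antibody Fc regions, lies on the same chromosome outside the row. It had 13.6, 13.5 and 14.7 FPKM in nanoparticle libraries, against 2.78, 2.93 and 3.12 FPKM in PBS libraries. The groups were fully apart (log2 fold change 1.92 ± 0.07 SE, limma adjusted p = 1.0e-08). Its window held overlapping pairs of the ISRE letters just after the start, and that of Trim26 held them further upstream. The Trim26 stretch below ends 61 bases before the start.
Trim21 (chr7:102565453-102565582, minus strand): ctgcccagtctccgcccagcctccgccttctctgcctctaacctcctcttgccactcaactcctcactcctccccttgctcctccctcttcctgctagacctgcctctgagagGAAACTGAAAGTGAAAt
Trim26 (chr17:36836956-36837085, plus strand): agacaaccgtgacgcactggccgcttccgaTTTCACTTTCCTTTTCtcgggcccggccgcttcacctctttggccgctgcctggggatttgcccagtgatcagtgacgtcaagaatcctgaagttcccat
Trim68, whose annotated span lies 112.1 kb from that of Trim21, showed 5.58, 4.72 and 4.93 FPKM in nanoparticle libraries and 4.18, 3.98 and 4.37 FPKM in PBS libraries (log2 fold change 0.23 ± 0.08 SE, limma adjusted p = 0.027). That call was lost with no filter, with median-ratio or upper quartile scaling, and without nanoparticle replicate 1 or PBS replicate 1 or 2 (adjusted p of 0.053 to 0.18).

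A second motif, TTCNNNGAA, the core of the gamma-activated sequence bound by STAT dimers, reads the same on both strands. It was found in windows of 6 of the 53 members, 11.3%, against 9.55% of all genes with a window. Those members were Trim46, Trim45, Trim30c, Trim38, Trim15 and Trim31. Of the 16 members in the table that rose, 2 held it.

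Members that act on nucleic acid sensing and cytokine signalling included both rises and falls. Of 12 listed, 10 were tested, 6 rose, 2 fell and 2 did not pass. That is 8 of 10 called, close to the 77.2% of all genes tested. By direction, 60% were higher and 20% lower, beside 42.7% and 34.5% of all genes tested. Their median log2 fold change was 0.39. Trim21, described above, was among those that rose. Trim25, which ubiquitinates the RNA sensor RIG-I, was the most abundant of them, with 67.0, 66.9 and 73.2 FPKM in nanoparticle libraries and 42.8, 42.4 and 45.5 FPKM in PBS libraries. Its groups did not overlap, and its log2 fold change was 0.65 ± 0.06 (SE, limma adjusted p = 4.2e-06). Trim26, a SPRY ligase of the MHC region, averaged 39.8 ± 3.08 FPKM in nanoparticle cells and 20.5 ± 0.463 FPKM in PBS cells (SD, n = 3 each; log2 fold change 0.92). Trim56, which acts on DNA and RNA sensing, averaged 12.2 ± 1.22 FPKM in nanoparticle cells and 5.89 ± 0.625 FPKM in PBS cells (log2 fold change 0.94). Trim13, a ligase of the endoplasmic reticulum membrane, averaged 4.36 ± 0.211 FPKM in nanoparticle cells and 2.72 ± 0.180 FPKM in PBS cells (log2 fold change 0.53), and 14.2% of its 50-base windows occur in other transcripts.

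Trim14, which lacks the RING and joins the mitochondrial adaptor MAVS, rose by less (16.6 ± 0.779 FPKM in nanoparticle cells and 13.9 ± 0.589 FPKM in PBS cells, log2 fold change 0.24). Its gene overlaps Nans on the opposite strand over 9852 bases, and Nans, the more abundant transcript, had a log2 fold change of 0.28. The sources used here do not say whether fragments were counted by strand, and the part of Nans in the Trim14 value was not tested. The Trim14 call was lost under median-ratio scaling (adjusted p = 0.11) and upper quartile scaling (adjusted p = 0.063). Trim32 did not pass, with 7.57, 8.57 and 8.06 FPKM in nanoparticle libraries and 8.46, 7.95 and 7.57 FPKM in PBS libraries. Trim31 and Trim38, the untested members of the list, stayed at or under 0.120 FPKM.

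Trim65 (ENSMUSG00000054517, chromosome 11, 116121846 to 116131128) fell the most of all members. It encodes a ligase that activates MDA5, a sensor of long double-stranded RNA. It had 0.698, 0.590 and 0.770 FPKM in nanoparticle libraries, against 3.11, 2.85 and 2.78 FPKM in PBS libraries. Trim65 passed the filter only through its PBS level, so its direction was fixed by the filter. The groups were far apart, and the log2 difference was -1.22 ± 0.09 (SE, limma adjusted p = 6.8e-07), and Trim65 was 4.25-fold lower as a ratio of means. The annotated span of its neighbour Trim47 overlaps it on the same strand over 5365 bases. Trim47 did not fall with it, with 1.35, 1.33 and 1.29 FPKM in nanoparticle libraries and 1.03, 1.20 and 1.21 FPKM in PBS libraries (log2 fold change 0.11, limma adjusted p = 0.23).

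Trim8, a ligase that promotes NF-kB signalling through TAK1, had 20.4, 21.6 and 20.7 FPKM in nanoparticle libraries, against 34.5, 31.7 and 31.8 FPKM in PBS libraries. All nanoparticle values were lower, and the log2 difference was -0.62 ± 0.06 (SE, limma adjusted p = 6.9e-06). Trim37, of the MATH class, limits centriole assembly and ubiquitinates histone H2A. It had 8.02, 7.79 and 8.81 FPKM in nanoparticle libraries, against 16.4, 15.2 and 16.6 FPKM in PBS libraries. Its log2 fold change was -0.89 ± 0.07 (SE, limma adjusted p = 1.9e-06), with no overlap between groups. Trim44, which has a zinc finger of the deubiquitinase type in place of the RING, averaged 13.8 ± 1.27 FPKM in nanoparticle cells and 17.7 ± 1.34 FPKM in PBS cells (log2 fold change -0.34, limma adjusted p = 3.4e-03).

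Trim27, known as RET finger protein, showed a split that followed the replicate number and not the treatment alone. It had 38.8, 39.2 and 22.1 FPKM in nanoparticle libraries 1 to 3, against 49.8, 48.3 and 28.7 FPKM in PBS libraries 1 to 3. Replicate 3 was the lowest of its group in both arms. Without a term for the replicate number, the difference of -0.34 ± 0.24 on the log2 scale (SE) did not pass (limma adjusted p = 0.23). With the replicate number as a block, the same fold change had an SE of 0.04 and passed (limma adjusted p = 2.5e-04). In that fit 28 of the 34 tested members were called, beside 81.6% of all genes tested. Within replicates 1, 2 and 3 the ratio of nanoparticle to PBS was 0.779, 0.811 and 0.772. The labels name no shared batch or day, so pairing by replicate number was inferred from these same data and is not established. Replicate 3 was at least 1.5-fold below the other replicates in both groups at 3 of the 10229 genes tested, which were Trim27, Ndufa12 and Gm49510. The like count was 2 genes for replicate 1 and 2 for replicate 2, so replicate 3 did not stand apart by this count. The counts were made after the Trim27 values were seen.

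**Figure D4:**
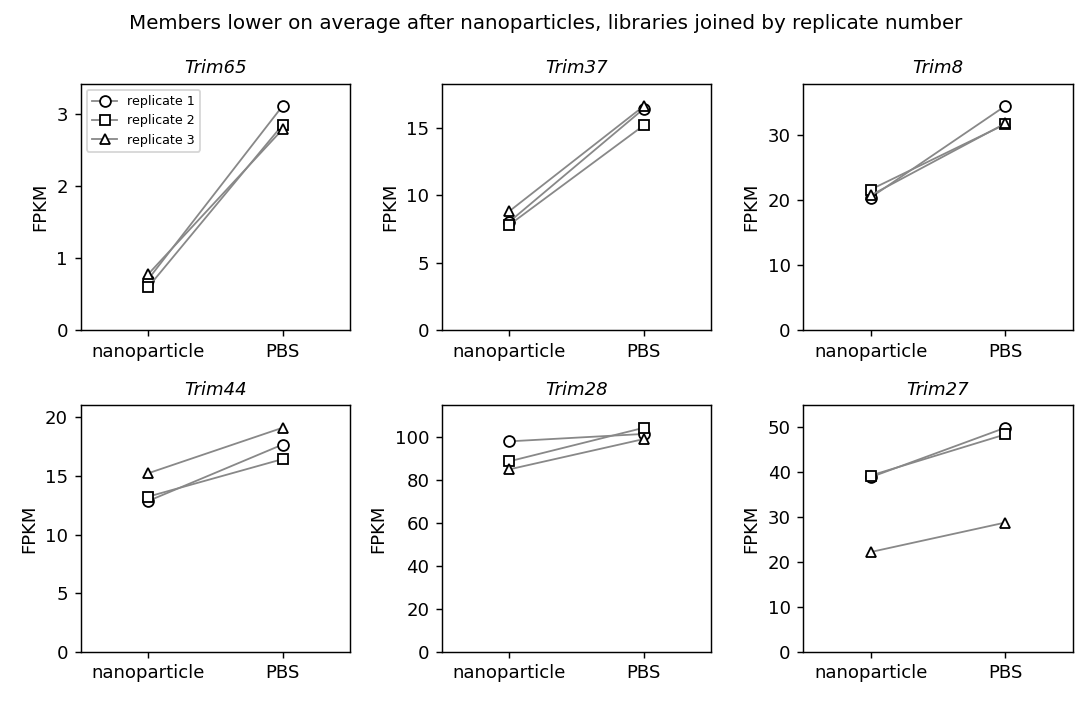
FPKM of 6 members with a lower nanoparticle mean, with nanoparticle left of PBS and lines joining libraries of the same replicate number. In 5 of them the groups separate, and in Trim27 replicate 3 lies at 22.1 FPKM with nanoparticles and 28.7 FPKM with PBS while all 3 lines slope the same way.

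The 3 tested chromatin members changed little. Trim28, or KAP1, is the corepressor that KRAB zinc finger proteins recruit to silence retroelements. It had 98.1, 88.8 and 85.1 FPKM in nanoparticle libraries and 102, 104 and 99.2 FPKM in PBS libraries. The groups just missed overlapping, and the log2 difference was -0.17 ± 0.06 (SE, limma adjusted p = 0.033). That call was lost with no filter, with no intensity trend, without nanoparticle replicate 2 or 3, without PBS replicate 1 or 2 and without both libraries numbered 3 (adjusted p of 0.051 to 0.11). Its annotated span overlaps Zbtb45 on the opposite strand over 6137 bases, and Zbtb45 averaged 4.15 FPKM in nanoparticle cells and 10.1 FPKM in PBS cells. Trim24 and Trim33, the remaining TIF1 members above the test's minimum, had log2 fold changes of -0.06 ± 0.09 and 0.01 ± 0.12 (SE, limma adjusted p = 0.52 and 0.96). Trim66 had 0.176 to 0.194 FPKM in nanoparticle libraries and 0.0156 to 0.0271 FPKM in PBS libraries and was not tested. Its ratio of means was 8.48, at levels far under the test's minimum.

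The listed silencing partners of Trim28 were called about as often as all genes tested (77.2%). Of 10 tested, 6 rose and 2 fell, 60% and 20% beside 42.7% and 34.5% of all genes tested. The median of their log2 fold changes was 0.22. Setdb1, the histone methyltransferase that Trim28 recruits, averaged 36.5 ± 2.16 FPKM in nanoparticle cells and 22.7 ± 0.919 FPKM in PBS cells (log2 fold change 0.66). Its cofactor Atf7ip averaged 9.53 ± 0.740 FPKM in nanoparticle cells and 4.39 ± 0.157 FPKM in PBS cells (log2 fold change 0.97). Cbx3, a heterochromatin protein of the HP1 family, fell to 25.5 ± 1.78 FPKM in nanoparticle cells, against 82.5 ± 10.1 FPKM in PBS cells (log2 fold change -1.65). Cbx5, of the same family, also fell (-0.70), whereas Cbx1 rose (0.33).

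Of the SPRY class as a whole, 14 of 17 tested members were higher, 82.4% beside 42.7% of all genes tested, and Trim65 was lower. Most of these are the cluster and sensing genes described above. Trim34a, Trim34b, Trim30c and Trim7 had PBS averages under 1 FPKM and passed the filter only through their nanoparticle level. Their direction was thus fixed by the filter, and of all 362 genes that entered that way, 95.9% were called higher. Among the 7 tested SPRY members outside the cluster and the sensing list, 6 were higher, 85.7% beside 42.7% of all genes tested. They were Trim7, Trim39, Trim41, Trim11, Trim35 and Trim68. Trim39, which stabilises the apoptosis modulator MOAP-1, had 22.6, 21.8 and 23.3 FPKM in nanoparticle libraries, against 6.12, 6.46 and 6.76 FPKM in PBS libraries. Its nanoparticle values were all far higher (log2 fold change 1.66 ± 0.07 SE, limma adjusted p = 1.3e-08). Trim41, a ligase of protein kinase C, had 32.9, 31.7 and 31.0 FPKM in nanoparticle libraries, against 14.1, 13.4 and 13.2 FPKM in PBS libraries (log2 fold change 1.17 ± 0.06 SE, limma adjusted p = 6.4e-08). Its end overlaps the far more abundant Rack1 on the opposite strand by 31 bases, and Rack1 was lower (log2 fold change -0.53). Trim7, a partner of the glycogen primer glycogenin, lies 8.8 kb from Trim41 on chromosome 11 and was rarer. It had 3.93, 2.89 and 3.72 FPKM in nanoparticle libraries, against 0.602, 0.124 and 0.210 FPKM in PBS libraries (log2 fold change 1.79 ± 0.14 SE, limma adjusted p = 1.9e-06). For Trim7, 11.7% of 50-base windows occur in other transcripts, and it overlaps the more abundant Gm12184 on the opposite strand over 516 bases.

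Trim11 averaged 13.2 ± 1.17 FPKM in nanoparticle cells and 7.97 ± 0.833 FPKM in PBS cells (log2 fold change 0.66). Trim35 was higher by a log2 fold change of 0.31, at 36.4 ± 0.737 FPKM in nanoparticle cells and 29.1 ± 1.09 FPKM in PBS cells. Both passed, as did members of several smaller classes. Trim46, which bundles microtubules in the axons of neurons, had 4.67, 3.64 and 4.43 FPKM in nanoparticle libraries, against 1.76, 1.54 and 1.37 FPKM in PBS libraries (log2 fold change 1.03 ± 0.10 SE, limma adjusted p = 7.7e-06). It overlaps the more abundant Krtcap2 on the opposite strand over 344 bases, and Krtcap2 was lower (log2 fold change -1.04). Trim36, of the same microtubule-binding class, averaged 1.93 ± 0.0948 FPKM in nanoparticle cells and 0.552 ± 0.0212 FPKM in PBS cells (log2 fold change 0.92). Trim36 passed the filter only through its nanoparticle level, so its direction was fixed by the filter.

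Trim23, which carries a GTPase domain of the ARF type, averaged 10.7 ± 1.14 FPKM in nanoparticle cells and 5.37 ± 0.463 FPKM in PBS cells (log2 fold change 0.87). Trim16, a RING-less member involved in the response to damaged lysosomes, averaged 1.83 ± 0.0867 FPKM in nanoparticle cells and 0.903 ± 0.0943 FPKM in PBS cells (log2 fold change 0.57). The direction of Trim16 was likewise fixed by the filter, which it passed only through its nanoparticle level. Trim3, of the NHL class, rose slightly (log2 fold change 0.32). Trim59, a transmembrane member, and Trim45, of the filamin class, did not pass, with log2 fold changes of 0.09 ± 0.08 and 0.06 ± 0.08 (SE, limma adjusted p = 0.34 and 0.53).

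**Figure D5:**
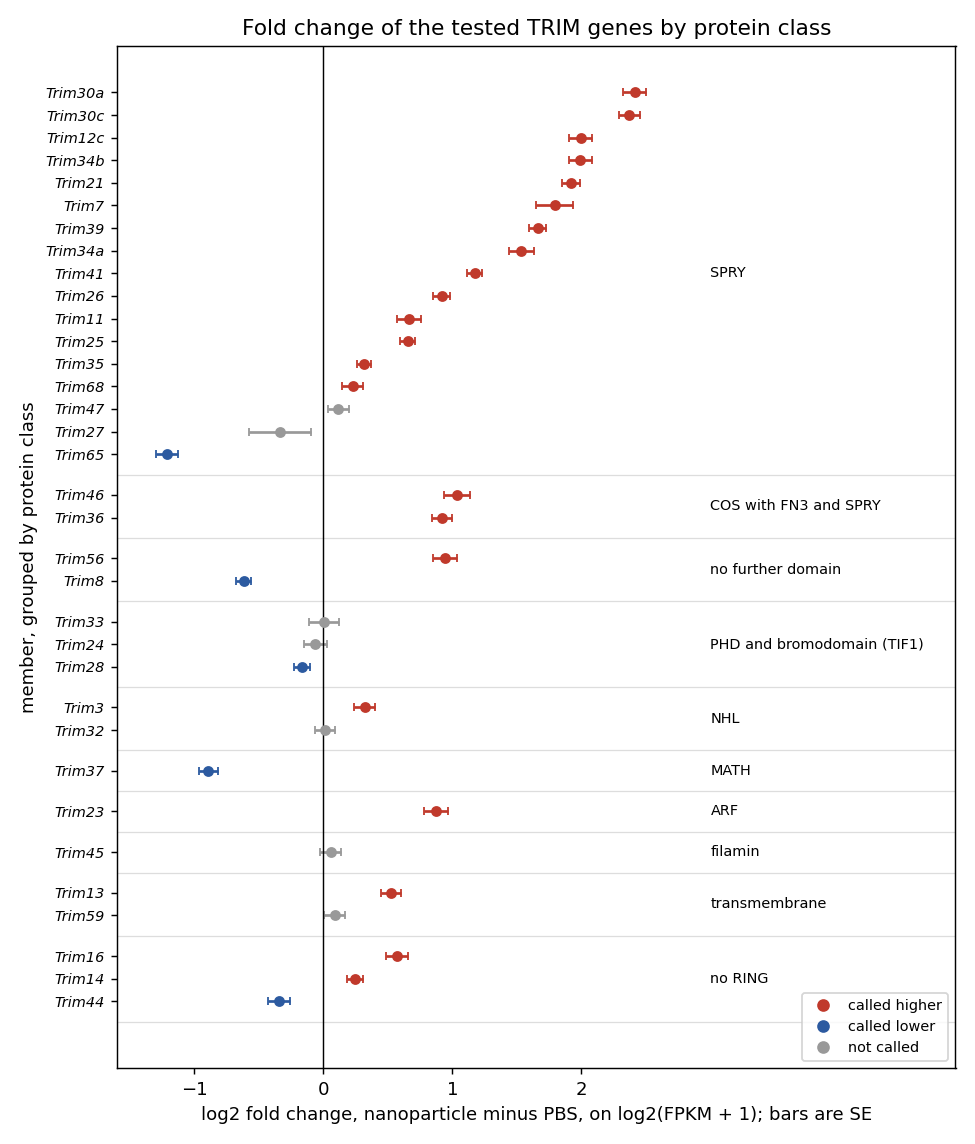
Log2 fold change on log2(FPKM + 1), nanoparticle minus PBS, with its SE, for the 34 tested members grouped by protein class, with red for called higher, blue for called lower and grey for not called. In the SPRY class 14 of 17 points are red, and in the TIF1 class none of 3 is. Trim34a, Trim34b, Trim30c, Trim7, Trim36 and Trim16 entered the test only through their nanoparticle level, and Trim65 only through its PBS level.

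Of the 34 members that were not tested, 32 stayed under 1 FPKM in every library, and the remaining 2 were Trim30d and Trim30b. Trim52 and Trim80 were listed at 0 in all 6 libraries. A further set of members was listed at 0 in PBS libraries, which made 14 in all with no PBS value above 0, 41.2% of the untested members beside 70.4% of all untested genes. Of these, Trim72, Trim54 and Trim38 were above 0 in all 3 nanoparticle libraries. Trim72 had 0.463, 0.634 and 0.643 FPKM there, although 23.8% of its windows occur in other transcripts. The nanoparticle values exceeded all PBS values for 13 untested members, 38.2% beside 22.1% of all 11876 untested genes. The reverse held for 0 untested members, beside 2.04% of untested genes. Genes at 0 in every library cannot separate, which lowers these backgrounds. Among untested genes above 0 in a library, the nanoparticle values lay above for 40.6% of 32 members and 33.7% of all 7779 genes. They lay below for 3.11% of those genes. At 0 in all PBS libraries were 37.5% of the 32 members and 54.7% of those genes. Trim2 was the most abundant untested member in PBS cells, with 0.742, 0.852 and 0.798 FPKM in nanoparticle libraries and 0.970, 0.790 and 0.789 FPKM in PBS libraries.

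TRIM proteins that carry other symbols were read beside the members. Pml, which builds nuclear bodies, averaged 48.3 ± 1.69 FPKM in nanoparticle cells and 15.5 ± 0.445 FPKM in PBS cells (log2 fold change 1.58). Mid1, a microtubule-binding relative of Trim36, was slightly lower (log2 fold change -0.22, limma adjusted p = 0.026). Mefv, or pyrin, and Mid2 were listed at 0 in all PBS libraries and stayed at or under 0.192 FPKM in nanoparticle libraries.

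Genes that work with Trim25 rose in 7 of 8 tested cases, 87.5% beside 42.7% of all genes tested, in a list chosen by hand with earlier results of these data known. Their median log2 fold change was 1.48. Mavs fell by 0.16 on the log2 scale (limma adjusted p = 0.046). Rigi, the sensor itself, averaged 63.5 ± 5.68 FPKM in nanoparticle cells and 15.2 ± 0.526 FPKM in PBS cells (log2 fold change 1.99). Rnf135, another ligase for RIG-I, averaged 12.6 ± 0.417 FPKM in nanoparticle cells and 3.79 ± 0.137 FPKM in PBS cells (log2 fold change 1.51). Isg15, the ubiquitin-like modifier, had a log2 fold change of 5.06 and its protease Usp18 of 3.23. Of the 11 E2 enzymes listed as partners of TRIM ligases, 5 rose, 2 fell and 4 did not pass, with a median log2 fold change of 0.15. Their shares called, 63.6%, and called higher, 45.5%, lay below and near the 77.2% and 42.7% of all genes tested. Ube2d2a rose (log2 fold change 0.52) and Ube2k fell (-1.05). Among genes listed with Trim21, the E2 enzyme Ube2n rose (0.36, limma adjusted p = 0.024). The E2 enzyme Ube2w (0.04, limma adjusted p = 0.74) and Vcp, the segregase that unfolds its targets, did not pass (-0.07, limma adjusted p = 0.29). Fcgrt, the neonatal Fc receptor and a receptor separate from Trim21, stood on the same list and rose (0.96).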

How the data were processed

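Libraries followed a BGI mRNA protocol from TRIzol RNA, per the labels' protocols. The deposited table holds 1 column of FPKM per library, made by the authors. The header names no unit, so FPKM was inferred from values that are not whole and whose sums differ, and TPM with rows removed is possible. The submitters' processing notes list GRCm38 and mm10 as builds, and STAR and featureCounts as tools without versions. Columns were matched to samples by library name, and the column of PBS replicate 1 adds a suffix of unknown meaning. Low values were whole multiples of a fragment step within 0.05 in 11.7% to 39.9% of cases, so fragment numbers were not recovered and depth is unknown. The 509 rows without an Ensembl gene identifier, 0.427% to 0.498% of a library's FPKM, were left out. Counts had been planned for as one possibility, and limma was used as the values are FPKM.

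Genes averaging at least 1 FPKM were tested with limma 3.58.1 (R 4.3.3), with an intensity trend, on log2(FPKM + 1), two-sided, nanoparticle minus PBS, Benjamini-Hochberg threshold 0.05. In simulated data with 200 of 10229 genes changed, a log2 change of 0.5 was recovered in 125, of 1 in 192 and of 2 in 200. False calls numbered 5, 7 and 8. In the data 77.2% of genes tested were called, far more than were changed in the simulation, so these recoveries need not hold there. Members and lists were chosen with earlier results of these data known. Every tested member was named, with full statistics where called with a log2 fold change of at least 1. Coordinates, overlaps and 50-base windows come from GENCODE M21 (GRCm38), and promoters from RefSeq (GRCm38.p6). Python 3.11.15, pandas 2.3.3 and matplotlib 3.10.9 were used. Deviations from group means correlated between libraries of the same replicate number at 0.130, 0.115 and 0.354 across genes. As each was over 0.1, the numbers were taken to pair the libraries, although nanoparticle 1 with PBS 2 gave 0.134. The labels name no shared batch or day. Alternatives changed the pseudocount, filter, scaling, trend, replicate block and libraries.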

Additional observations from a re-analysis of the deposited data

How the results depend on the processing

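No called member changed direction under any alternative run. Trim32, Trim33, Trim45 and Trim59, which were not called, turned slightly negative with median-ratio and upper quartile scaling. Requiring an average of 5 FPKM left 13 members called higher, 5 of them with a log2 fold change of 1 or more, and 0 called lower by that much. With a pseudocount of 10 FPKM, 2 members were higher and 0 lower by at least 1, and over all genes the counts were 402 and 203, since the added value shrinks the fold changes of low genes. Median-ratio scaling gave 2 members lower by at least 1. The members' median log2 fold change was 0.66 with a pseudocount of 0.1, 0.18 with a pseudocount of 10, 0.14 with no filter, 0.32 with the 5 FPKM filter, 0.46 with median-ratio scaling, 0.48 with upper quartile scaling and 0.63 on TPM. Over all genes that median was 0.08, and it became -0.04 with median-ratio and -0.02 with upper quartile scaling.

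Leaving out 1 library at a time gave 21 to 22 members called higher and 4 to 6 called lower, 9 to 10 higher by at least 1, and a median of 0.53 to 0.57. With the replicate number as a block, Trim27 was gained (adjusted p = 2.5e-04) and no member's call was lost. Trim27 also passed without PBS replicate 3 (adjusted p = 0.023) and without both libraries numbered 3 (adjusted p = 0.0012), an alternative added after seeing the data. Trim14, Trim28 and Trim68 lost their calls under the settings given with their values. A count model was not run, as the deposited values hold no counts. Unknown depth leaves no counting interval for members under 1 FPKM.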
